A study of Mus musculus with 48 samples.

Results

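The genes described here are noncoding genes of the mouse whose symbol is that of a coding gene followed by os, for opposite strand, or by os and a digit. Of 55335 genes in the expression tables, 289 carried such a symbol in the GENCODE annotation and were not protein coding, and 88 of these were selected on their level, a mean of at least 0.1 CPM, reads scaled to a fixed library total, over the 28 RNA-seq libraries. The coding gene that the symbol names, called the stem gene below (*Stam* for *Stamos*), was followed beside each of them, and 87 of the 88 had one, on the opposite strand in all 87 pairs. The genes were chosen on the mean over all libraries, so 11 of them passed only because 1 group was high, which was *Mtrex*-KO for 10 and *Nrde2*-KO for *Gssos2*. At the limit, *Kif16bos*, *Gssos2* and *Uckl1os* lay just inside with means of 0.101, 0.102 and 0.105 CPM, and *Tvp23bos*, *Ptgs2os* and *Chn1os3* just outside with 0.0984, 0.0976 and 0.0961 CPM.

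All libraries came from mouse embryonic stem cells (mESCs) of a hybrid 129-C57BL/6 background grown in serum with LIF and 2i inhibitors, and all lines carried a Cre-ERT2 recombinase that 4-hydroxytamoxifen (4OHT) activates. Each group had 2 libraries, for RNA-seq of ribosomal RNA-depleted total RNA sequenced with strand information. Conditional *Nrde2*-KO cells received 100 nM 4OHT for 4 days and conditional *Mtrex*-KO cells 100 nM 4OHT for 3 days, and the WT of each was the same line without 4OHT. *Nrde2*Δ*200* cells lacked the N-terminal 200 amino acids of NRDE2, and *Nrde2-D174R* cells carried a substitution that weakens binding of MTREX, both compared with the WT of the first *Nrde2*-KO experiment. *Ccdc174-dTAG* cells carried CCDC174 fused to the FKBP12 F36V degron and received 500 nM dTAG-13 for 24 h, with the same line without the compound as WT. The *Nrde2*-KO line in a second experiment, the *Ccdc174-dTAG* line and the WT of each were grown without CHX or for 4 h in its presence at 0.1 mg/ml; CHX is cycloheximide, an inhibitor of translation. Ribosome profiling (Ribo-seq) covered WT and *Nrde2*-KO cells. The lines were edited clones, so a difference between 2 libraries of one line and 2 of another, as for *Nrde2*Δ*200* and *Nrde2-D174R*, cannot be told apart from a difference between clones. Nothing in the labels says that 2 libraries of a group came from separate cultures, and the p-values then cover only the spread between these libraries.

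MTREX is the RNA helicase that hands nuclear RNA to the exosome, the main 3′ to 5′ RNA degrading machine of the nucleus, and works in adaptor complexes named NEXT and PAXT. Its substrates include short-lived transcripts that start next to coding promoters and run away from them, and transcripts antisense to coding genes. NRDE2 binds MTREX, and CHX stops translation, on which nonsense-mediated decay of spliced RNA in the cytoplasm depends.

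By the annotation, 73 of the 88 genes were of type antisense, 7 processed transcripts, 5 lincRNAs, 2 bidirectional promoter lncRNAs and 1 a transcribed unitary pseudogene. In 32 cases their starts lay within 1000 bases of the stem gene's start on the opposite strand (median distance 210.5 bases), called divergent below. Of these, 14 did not overlap the stem gene, while 18 started inside it and ran back across its start. Another 49 overlapped the body of the stem gene with starts further apart, 6 lay apart from it, and *Snhg7os* had no coding stem gene. Some of the 49 also ran across the stem gene's start, as *Ino80dos* did from 1589 bases away. Exons of 56 pairs overlapped on opposite strands. The median exon length was 1610 bases, and 4 of the genes, *Phtf1os*, *Zbtb11os1*, *Notumos* and *B9d1os*, had no intron.

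The 3 divergent pairs below show what lies between a coding start and its opposite-strand gene. *Stamos* is given for its rise in *Mtrex*-KO, *Cep83os* for its rise with CHX, and *Map2k3os* because it was called in no comparison; *Map2k3os* was chosen after its values were seen. The sequences are RefSeq promoter windows on GRCm38.p6, 250 bases before and 50 bases after the start of the opposite-strand gene, on the minus strand in each case, and the capitals mark the stretch from the coding gene's start, which runs the other way, to the last base before the opposite-strand gene.
*Stamos*, chr2:14073885-14074184: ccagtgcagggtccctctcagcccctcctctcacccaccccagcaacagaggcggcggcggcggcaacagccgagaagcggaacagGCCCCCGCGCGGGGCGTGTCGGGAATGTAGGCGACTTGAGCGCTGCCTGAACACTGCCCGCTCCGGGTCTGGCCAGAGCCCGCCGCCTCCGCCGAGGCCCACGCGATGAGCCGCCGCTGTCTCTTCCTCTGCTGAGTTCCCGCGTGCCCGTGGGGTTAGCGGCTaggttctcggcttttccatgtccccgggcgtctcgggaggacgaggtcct
*Cep83os*, chr10:94688564-94688863: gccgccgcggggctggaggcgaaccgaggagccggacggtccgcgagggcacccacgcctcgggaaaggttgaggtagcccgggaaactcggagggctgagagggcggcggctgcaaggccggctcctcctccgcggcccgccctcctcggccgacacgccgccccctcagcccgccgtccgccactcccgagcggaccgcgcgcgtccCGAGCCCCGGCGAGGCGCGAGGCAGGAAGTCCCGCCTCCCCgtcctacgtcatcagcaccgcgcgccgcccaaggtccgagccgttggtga
*Map2k3os*, chr11:60931818-60932117: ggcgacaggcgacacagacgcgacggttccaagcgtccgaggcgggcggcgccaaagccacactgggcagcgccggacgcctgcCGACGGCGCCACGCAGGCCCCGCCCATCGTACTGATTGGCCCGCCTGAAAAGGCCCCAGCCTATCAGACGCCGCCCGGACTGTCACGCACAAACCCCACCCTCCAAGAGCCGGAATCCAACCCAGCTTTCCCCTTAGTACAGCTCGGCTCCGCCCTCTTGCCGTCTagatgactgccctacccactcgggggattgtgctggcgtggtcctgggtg

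The start of *Stam* lay at position 87 of its window, that of *Map2k3* at position 85 and that of *Cep83* at position 210, so that the stretch in capitals was short for *Cep83os* and long for the others. The 3 windows held 70.3%, 67.7% and 76.7% G or C for *Stamos*, *Map2k3os* and *Cep83os*. The motif GGGCGG, searched on both strands, occurred 4 times in the windows of *Cep83os* and *Map2k3os* and not in that of *Stamos*. Of 53 opposite-strand genes with a RefSeq promoter, 54.7% held GGGCGG, as did 56.1% of 66 stem gene promoters and 35.9% of all 27025 promoters. CCAAT was in 34.0% of them and in 37.9% of all promoters, and TATAAA in 5.66% and 14.2%. Median G or C was 60.7% in these 53 and 52.7% over all promoters. In divergent pairs the windows of both genes share bases, so likeness between opposite-strand and stem genes is partly built in. The 27025 promoters were not selected on level, unlike the opposite-strand genes.

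The first 5′ splice site and early polyadenylation motifs were read from the genome (GRCm38) from the start of each gene and from its most upstream transcript, to set them beside the rises described below. The splice sites of the 5 genes with the largest rise in *Mtrex*-KO among the 40 tested stand first below, and after them those of the genes not called there among the 8 of highest mean level, which were 4. They are given 5′ to 3′ as 3 exon bases in lower case and 6 intron bases in capitals, with matches counted over these 9 bases to the consensus, CAG before the junction and GTAAGT after it.
*Stamos*, chr2:14073577-14073585, minus strand: gagGTAACG
*Ino80dos*, chr1:63113217-63113225, plus strand: gggGTAGTA
*Igf2os*, chr7:142661027-142661035, plus strand: aagGTGAGC
*Zfp85os*, chr13:67729700-67729708, plus strand: ctgGTGAGT
*H3f3aos*, chr1:180813871-180813879, plus strand: taaGTGAGC
*Brip1os*, chr11:86201550-86201558, plus strand: cagGTACCG
*Rab10os*, chr12:3235927-3235935, plus strand: cagGTGAGT
*Rab26os*, chr17:24528434-24528442, plus strand: cagGTATGA
*Kank4os*, chr4:98793880-98793888, plus strand: gagGTAACT

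The sites of the first 5 matched the consensus at 6, 4, 6, 7 and 5 bases in the order given, and those of *Brip1os*, *Rab10os*, *Rab26os* and *Kank4os* at 6, 8, 7 and 7. Over the 82 opposite-strand genes whose site was read the median was 6 matches, equal to that of stem genes and of all genes of at least 0.1 CPM, and it was 6 both in the 17 genes read that rose in *Mtrex*-KO and in the 19 that were tested there and did not. Sites with 8 or 9 matches were found in 10 of the 82 (12.2%) against 10.8% of coding genes, and in 0 of those 17 and 3 of those 19. The polyadenylation motif AATAAA lay within the first 1000 transcribed bases of 28 of the 88 genes (31.8%), of 17.4% of stem genes, 19.1% of coding genes and 40.6% of noncoding genes. It was present in 6 of the 20 genes that rose in *Mtrex*-KO and in 8 of the 20 that did not. GGTAAG, the core of a strong 5′ splice site, was present in 28.4% of the 88 and 27.5% of coding genes. These counts describe the sequences only, and no test was made of them.

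RNA-seq libraries held 28683644 to 36272309 reads in genes, so that 1 read was worth 0.0248 to 0.0304 CPM, and Ribo-seq libraries 3475051 to 5035940. The share of reads that fell in genes was 72.1% and 82.7% in the *Mtrex*-KO libraries and 83.6% to 92.1% in the other RNA-seq libraries. *Mtrex* RNA fell by 1.41 on the log2 scale in *Mtrex*-KO and *Nrde2* RNA fell by 1.05 and 1.41 in the first and second *Nrde2*-KO experiments. With CHX, however, *Nrde2* stood at 253 normalised CPM in the libraries labelled *Nrde2*-KO and 233 in WT. A gene-level count also takes reads outside the deleted part, so that this does not check the labels, and directions drawn from the *Nrde2*-KO libraries with CHX rest on the labels. *Ccdc174* RNA does not report on depletion of a degron-tagged protein.

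Most of the opposite-strand genes were scarce. The 8 with the highest mean over all libraries were *Brip1os* (36.8 CPM), *Epb41l4aos* (20.7), *Srrm4os* (15.3), *Rab10os* (14.8), *Rab26os* (6.28), *Kank4os* (5.55), *Vax2os* (5.50) and *Ino80dos* (4.31), and 41 of 88 reached 0.5 CPM. Scaled over the 28 libraries, *Brip1os* ranged from 25.3 to 61.9 CPM with a median of 31.6, and *Rab10os* from 7.59 to 26.6 with a median of 13.1. *Vax2os* ranged from 0.242 to 9.78 CPM with a median of 5.28. The range of *Brip1os* and *Rab10os* was thus a few fold, while that of *Vax2os* was set by its low level in *Mtrex*-KO. Per kb of exon, the opposite-strand gene stood above its stem gene in 19 of 87 pairs in the WT of the *Mtrex* line and in 22 in *Mtrex*-KO, and the median of the ratio was 0.0774 and 0.254. *Srrm4os* was one of those that stood above, with 4.21 CPM per kb against 0.130 for *Srrm4*, a splicing regulator of neurons. In the 56 pairs whose exons overlap, the reads of the opposite-strand gene were in the median 3.77% of those of the stem gene in WT and 12.0% in *Mtrex*-KO, and what part of them came from the other strand was not tested. In 13 of the 88 another annotated gene lay on the same strand, as a small nucleolar RNA gene does within *Rab26os* and predicted genes do within *Ino80dos*, *Epb41l4aos*, *Tbx3os1*, *Hoxa11os* and *Rsf1os2*. For a gene count of the WT samples the methods name a setting that assigns no read to more than 1 gene. Whether the deposited values were counted in that way is not stated.

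In *Mtrex*-KO many of the opposite-strand genes were higher. Of the 40 with a mean of at least 0.5 CPM over the 20 libraries without CHX, 20 rose and 4 fell in *Mtrex*-KO at an adjusted p below 0.01 and a change of more than 1 on the log2 scale (limma with Benjamini-Hochberg adjustment over all genes). Over all 14889 genes 15.4% were called higher and 11.3% lower. The median log2 fold change was 1.02 for the 40 and -0.02 for all genes. The class stood between the 1914 noncoding genes tested, of which 34.4% rose with a median of 0.42, and the 195 antisense genes without an os symbol, of which 70.8% rose with a median of 2.03. Of 71 stem genes tested, 15 rose and 7 fell with a median of -0.02. Of 15 genes with divergent starts, whether or not they overlap the stem gene, 9 rose. Of 21 overlapping genes with starts further apart 9 rose, and the medians were 1.29 and 0.82.

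A gene that is high in *Mtrex*-KO passes the level filter more easily. When the filter of 0.5 CPM was put on the libraries other than *Mtrex*-KO, 32 genes were tested, of which 12 rose and 4 fell (37.5% higher, against 13.8% of all genes under the same filter), with a median of 0.50. Of 12 genes with divergent starts 6 then rose, and of 17 overlapping genes 5 rose, with medians of 0.81 and 0.50. At 0.1 CPM in those libraries 71 were tested, of which 32 rose and 4 fell, 45.1% higher against 16.3% of all genes. Over all 88, both *Mtrex*-KO libraries lay above both WT libraries for 63 (71.6%) and below for 9 (10.2%), and the libraries overlapped for 16, while over the 20384 genes of at least 0.1 CPM the libraries lay above for 40.3% and below for 34.1%. Without the 10 that reached 0.1 CPM only through *Mtrex*-KO, they lay above for 53 of 78 (67.9%) and below for 9 (11.5%), against 39.3% and 34.6% of the 20166 genes of at least 0.1 CPM in the other libraries. *Mtrex*-KO was the highest of the 14 groups for 43 of the 88 (48.9%), against 16.3% of all genes of at least 0.1 CPM. In the 78 it was the highest for 33 (42.3%), against 15.1% of all genes under that rule. *Frmd8os*, chosen after its values were seen, was one of the 10 and is given as a description only. It had no read in either WT library and 108 and 87 in *Mtrex*-KO, which was at least 61.2-fold higher when 3 reads over both WT libraries are taken as the floor.

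*Stamos*, divergent to the endosomal sorting gene *Stam*, rose most among the 40 tested genes. It stood at 0.288 and 0.572 normalised CPM in WT and 7.01 and 7.49 in *Mtrex*-KO, a log2 fold change of 3.49 ± 0.248 (SE, n = 2 against 2, limma adjusted p = 1.6e-09). Its median over the 28 libraries was 0.413 CPM, below the level filter of 0.5 CPM, so its level in *Mtrex*-KO helped it pass. The same held for *Igf2os*, *Zfp85os* and *Rsf1os2* below, with medians of 0.260, 0.472 and 0.485 CPM. The ranks and p-values of these genes are therefore a description. *Stam* itself stood at 74.6 and 62.9 in WT and 74.8 and 64.3 in *Mtrex*-KO, within the spread of its libraries. *Ino80dos*, which overlaps a gene for a subunit of the INO80 chromatin remodeller, stood at 1.57 and 1.69 in WT and 13.8 and 15.6 in *Mtrex*-KO, a change of 2.99 ± 0.2 (limma adjusted p = 8.29e-10). In this pair the coding gene moved too, since *Ino80d* had 88.8 and 84.3 in WT and 222 and 171 in *Mtrex*-KO, a change of 1.17. *Igf2os*, antisense to the imprinted fetal growth factor gene *Igf2*, stood at 0.262 and 0.572 in WT and at 3.65 and 4.55 in *Mtrex*-KO, a change of 2.74 ± 0.357.

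*Zfp85os*, *H3f3aos* and *Rsf1os2* came next in size. *H3f3aos*, divergent to a gene for histone H3.3, had 0.629 and 0.871 CPM in WT and 6.26 and 5.02 in *Mtrex*-KO (log2 fold change 2.56). *Zfp85os*, opposite to a KRAB zinc finger gene, had 0.314 and 0.245 in WT and 3.13 and 3.14 in *Mtrex*-KO (2.68). *Rsf1os2*, opposite to a chromatin remodelling factor, had 0.393 and 0.435 in WT and 3.23 and 2.61 in *Mtrex*-KO (2.25). None of *H3f3a*, *Zfp85* and *Rsf1* was called, with changes of -0.22, -0.64 and 0.18. *H3f3a* has near-identical copies in the genome, and its count is uncertain for that reason. In each of these 3 genes both *Mtrex*-KO libraries lay several-fold above both WT libraries.

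The further genes among the 15 of largest change were *Ccdc142os* (2.19), *Fbxl12os* (2.07), *Abhd11os* (2.02), *Phtf1os* (1.99), *Tmem51os1* (1.92), *Appbp2os* (1.65) and *Zbtb11os1* (1.61), all on the log2 scale and all higher in both *Mtrex*-KO libraries. The lowest rises passed by little and were named after their values were seen, as for *Tspan32os* with 0.760 and 0.463 CPM in WT and 1.86 and 1.29 in *Mtrex*-KO (1.09). Both genes opposite to *Tbx3*, a T-box transcription factor gene of naive mESCs, rose, *Tbx3os1* by a log2 fold change of 1.09 and *Tbx3os2* by 1.48, while *Tbx3* changed by 0.43 and was not called. Several of the smaller changes were not called when 1 library was left out, *Tbx3os1* without WT replicate 1 (0.98) or *Mtrex*-KO replicate 2 (1.02), *Tbx3os2* without WT replicate 1 (1.41) or *Mtrex*-KO replicate 2 (0.99), and *Tspan32os* without WT replicate 2 (0.83) or *Mtrex*-KO replicate 1 (0.87). Without *Mtrex*-KO replicate 2 the genes *Zfp85os*, *Igf2os*, *Ccdc142os*, *Fbxl12os* and *Appbp2os* fell under the level filter, as did *Igf2os* without *Mtrex*-KO replicate 1.

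The genes that fell were 4. *Vax2os*, divergent to a homeobox gene of the developing eye, stood at 4.77 and 4.46 CPM in WT and 0.261 and 0.231 in *Mtrex*-KO, a log2 fold change of -3.29 ± 0.156 (SE, n = 2 against 2, limma adjusted p = 1.63e-11). *Vax2* fell with it, from 7.10 and 7.92 to 0.391 and 1.16, a change of -3.03. *Hoxa11os* went from 1.86 and 3.10 to 0.587 and 1.12 (-1.31) and was not called without WT replicate 2 (-0.98) or *Mtrex*-KO replicate 1 (-0.95), and its homeobox stem gene *Hoxa11* fell too (-2.17). *Srrm4os* went from 13.8 and 15.9 to 5.08 and 4.19 (log2 fold change -1.63), and its stem went the other way, since *Srrm4* had 1.31 and 0.871 in WT and 6.22 and 4.36 in *Mtrex*-KO (2.05). *Epb41l4aos* went from 12.3 and 13.3 to 5.21 and 4.59 (-1.35), while *Epb41l4a* changed by -0.16 and was not called. Among these 4 were 3 of the 8 most abundant genes of the class, *Vax2os*, *Srrm4os* and *Epb41l4aos*.

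**Figure D1:**
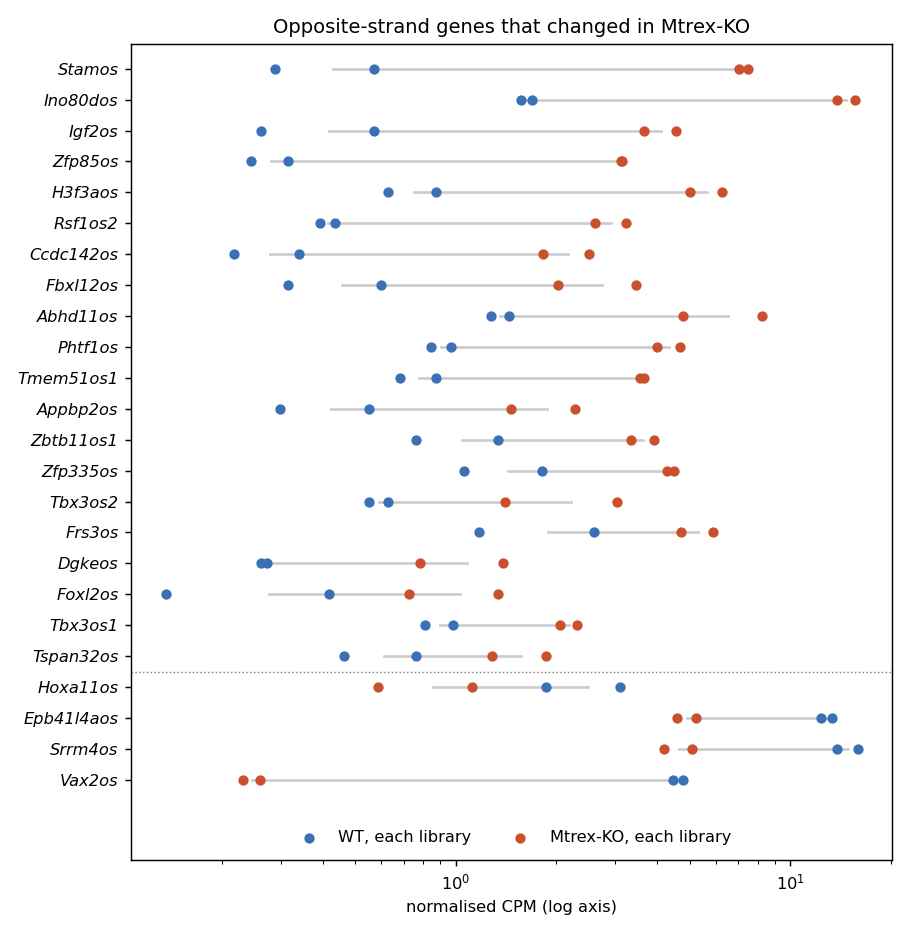
Normalised CPM (log axis) of the 24 opposite-strand genes called in Mtrex-KO, with 1 point for each of 2 WT and 2 Mtrex-KO libraries and a grey line between the group means; 20 genes lie to the right in Mtrex-KO and 4 (Vax2os, Srrm4os, Epb41l4aos, Hoxa11os) to the left.

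The most abundant gene, *Brip1os*, divergent to the DNA repair helicase gene *Brip1*, was not called. It stood at 31.4 and 30.7 CPM in WT and 24.8 and 28.5 in *Mtrex*-KO, a log2 fold change of -0.22 (limma adjusted p = 0.0596), while *Brip1* fell from 44.5 and 48.0 to 15.6 and 20.8 (-1.35). *Rab26os*, within the gene of a vesicle trafficking GTPase, had 6.94 and 6.75 in WT and 11.8 and 12.7 in *Mtrex*-KO, a change of 0.82 that passed the p threshold (4.91e-05) but not that of size. *Rab10os* and *Kank4os* changed by 0.40 and 0.50 and were not called, and *Kank4* fell by 2.32 on the log2 scale.

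Over the 36 pairs in which both genes were tested, the opposite-strand gene rose and the stem gene was not called in 14, both rose in 3, both fell in 2 and they were called in opposite directions in 1, *Srrm4os*. In 4 pairs only the stem gene fell, in 1 only the opposite-strand gene fell, and 11 had neither called. The pairs in which both rose were *Ino80dos*, *Frs3os* and *Tspan32os*, with stem changes of 1.17, 1.27 and 2.18; the latter pairs were named after their values were seen, and *Frs3os* was not called without WT replicate 2 (0.95). Median log2 fold changes were 0.89 for the opposite-strand genes and -0.08 for their stem genes, and the changes correlated with r = 0.36 and rho = 0.30 over these 36 pairs, which share libraries and, where exons overlap, sequence. The pairs come from the fit whose level filter includes *Mtrex*-KO, which lets in opposite-strand genes that are high there.

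**Figure D2:**
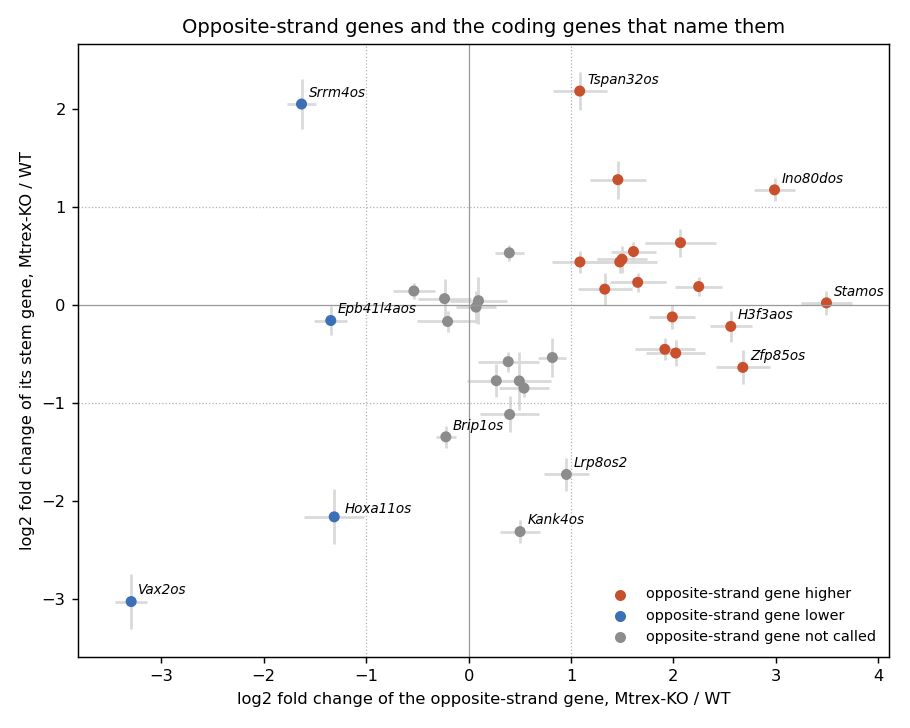
Log2 fold change (Mtrex-KO over WT) of each opposite-strand gene against that of the coding gene it is named for, for the 36 pairs tested, with SE bars and dotted lines at -1 and 1; most genes that rose lie to the right at stem changes near 0, Vax2os and Hoxa11os lie low with their stem genes, and Srrm4os lies to the upper left.

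Marker genes of other cell states moved beside these changes. In *Mtrex*-KO all 7 markers of the 2-cell-like state rose, with a summed level of 102 to 315 CPM against 4.64 to 14.3 in WT, and 3 of 4 tested trophectoderm markers rose, with a sum of 441 to 479 against 55.8 to 93.0. Of the mESC markers 1 of 8 fell, *Nanog* by 1.05 on the log2 scale, with sums of 4580 to 5445 and 6043 to 6198. Primitive endoderm markers summed to 13.9 to 15.4 against 10.5 to 10.7, with 1 of 4 tested higher, and fibroblast markers to 2.48 to 3.09 against 2.12 to 3.67. Of 3 neural markers tested 1 rose and 1 fell, of 3 mesoderm markers 1 fell and of 2 fibroblast markers 1 rose and 1 fell. Whether these states take part in the changes of the opposite-strand genes was not tested. In such bulk libraries fewer cells of a type and less RNA per cell cannot be told apart.

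Few genes of nuclear RNA surveillance were called in *Mtrex*-KO. Among 12 exosome genes *Exosc7* and *Exosc8* fell, by 1.25 and 1.09 on the log2 scale, and *Mtrex* was the only one of 3 NEXT genes to fall. Of 5 PAXT genes *Zfc3h1* rose by 1.23, and of 14 Integrator genes *Ints11* fell by 1.01. No gene was called among 4 cap-binding genes and 2 of the restrictor complex, with changes of -0.49 to 0.51 and -0.0015 to 0.35.

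Few of the opposite-strand genes were called in *Nrde2*-KO. In the first experiment 1 of 40 was called, *Tbx3os1*, at 0.787 and 0.619 CPM in WT and 2.19 and 1.82 in *Nrde2*-KO, a log2 fold change of 1.24 ± 0.272 (SE, n = 2 against 2, limma adjusted p = 0.00224). In the second experiment without CHX it was again the one gene called, at 0.196 and 0.691 in WT and 1.55 and 1.5 in *Nrde2*-KO, a change of 1.45 ± 0.272 (limma adjusted p = 0.000631). *Tbx3* changed by 0.34 and 0.35 and was not called in either. Among all genes 2.88% were called higher and 2.14% lower in the first experiment and 2.34% and 2.47% in the second, so that 1 of 40 lay near the background. The call in the first experiment was lost without WT replicate 2, *Nrde2*-KO replicate 1 or *Nrde2*-KO replicate 2, at changes of 1.12, 1.13 and 1.36, and that in the second without WT replicate 1 (0.91). *Srrm4os* changed by 0.13 in the first experiment and 0.65 in the second (limma adjusted p = 0.00209), below the size threshold.

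In *Nrde2*-KO, too, markers of other cell states moved beside the opposite-strand genes. All 7 markers of the 2-cell-like state rose in both experiments, with sums of 24.5 to 36.5 CPM against 2.56 to 3.13 in WT in the first and 104 to 110 against 6.77 to 6.83 in the second. Of 4 primitive endoderm markers tested 1 rose in each, with sums of 17.7 to 19.9 against 11.4 to 11.9 in the first experiment, and of 4 trophectoderm markers 1 rose in each, with sums of 65.5 to 70.1 against 75.6 to 84.9. Of the 8 mESC markers 0 were called, with sums of 4305 to 4622 against 5598 to 5836 in the first experiment and 4911 to 5071 against 5582 to 5769 in the second, and 0 were called of the neural, mesoderm and fibroblast markers. In *Nrde2*Δ*200* 3 of the 7 markers of the 2-cell-like state rose, with sums of at least 15.8 CPM against at most 3.13 in WT, and 1 of 3 mesoderm markers rose. The part of these states in the changes of *Tbx3os1* and *Hoxa11os* was not tested.

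The effects of *Mtrex*-KO and *Nrde2*-KO differed for 16 of the 40 genes when the difference itself was fitted, with 13 higher in *Mtrex*-KO and 3 lower. Over all 14889 genes 11.3% were called higher and 7.31% lower. *Stamos* differed by 3.60, *Zfp85os* by 2.78, *H3f3aos* by 2.7, *Ino80dos* by 2.54 and *Vax2os* by -2.85 on the log2 scale. For *Tbx3os1* the difference was -0.16 ± 0.385 (limma adjusted p = 0.767), and its values in the comparisons stand side by side above. With the filter on the libraries other than *Mtrex*-KO, 10 of 32 were called, 7 higher (21.9%) and 3 lower (9.38%). Over all 14649 genes under that filter 9.95% were called higher and 7.44% lower, so that the share of lower calls lay near the background.

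*Nrde2*Δ*200* cells differed from WT in 1 of 40 genes, *Hoxa11os*, at 0.583 and 0.569 CPM in WT and 2.94 and 3.24 in *Nrde2*Δ*200*, a log2 fold change of 2.01 ± 0.293 (limma adjusted p = 0.000203). *Hoxa11* rose too, from 2.13 and 2.42 to 7.98 and 8.81 (1.78, adjusted p = 0.000378). In *Nrde2*-KO of the same experiment *Hoxa11os* changed by 0.89 and *Hoxa11* by 0.53, neither called. Among all genes 1.56% were called higher and 1.07% lower in *Nrde2*Δ*200*. In the WT of other lines *Hoxa11os* stood at 1.86 and 3.10 CPM (*Mtrex* line) and at 0.0264 and 0.0267, or 1 read a library (*Ccdc174* line). In *Nrde2-D174R* cells limma called 0 of 40 at a smallest adjusted p of 0.137, with changes from -0.72 to 0.89 and 5 genes at an unadjusted p below 0.05. edgeR and DESeq2 on the recovered reads also called 0, and over all genes 0.161% were called higher and 0.0604% lower.

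After depletion of CCDC174 without CHX 1 of 40 was called, *Lrp8os2*, which lies opposite to the gene of a reelin receptor. It stood at 1.22 and 1.33 CPM in WT and 2.7 and 2.90 after dTAG-13, a log2 fold change of 1.00 ± 0.216 (limma adjusted p = 0.00503), at the threshold, and the call was lost without any 1 of the 4 libraries (0.95 to 1.06). *Lrp8* changed by -0.68 and was not called. Among all genes 0.222% were called higher and 1.18% lower. In *Nrde2*-KO cells *Lrp8os2* changed by 0.64 and 0.33 in the 2 experiments and was not called, while *Lrp8* fell by 1.48 and 1.45 on the log2 scale.

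**Figure D3:**
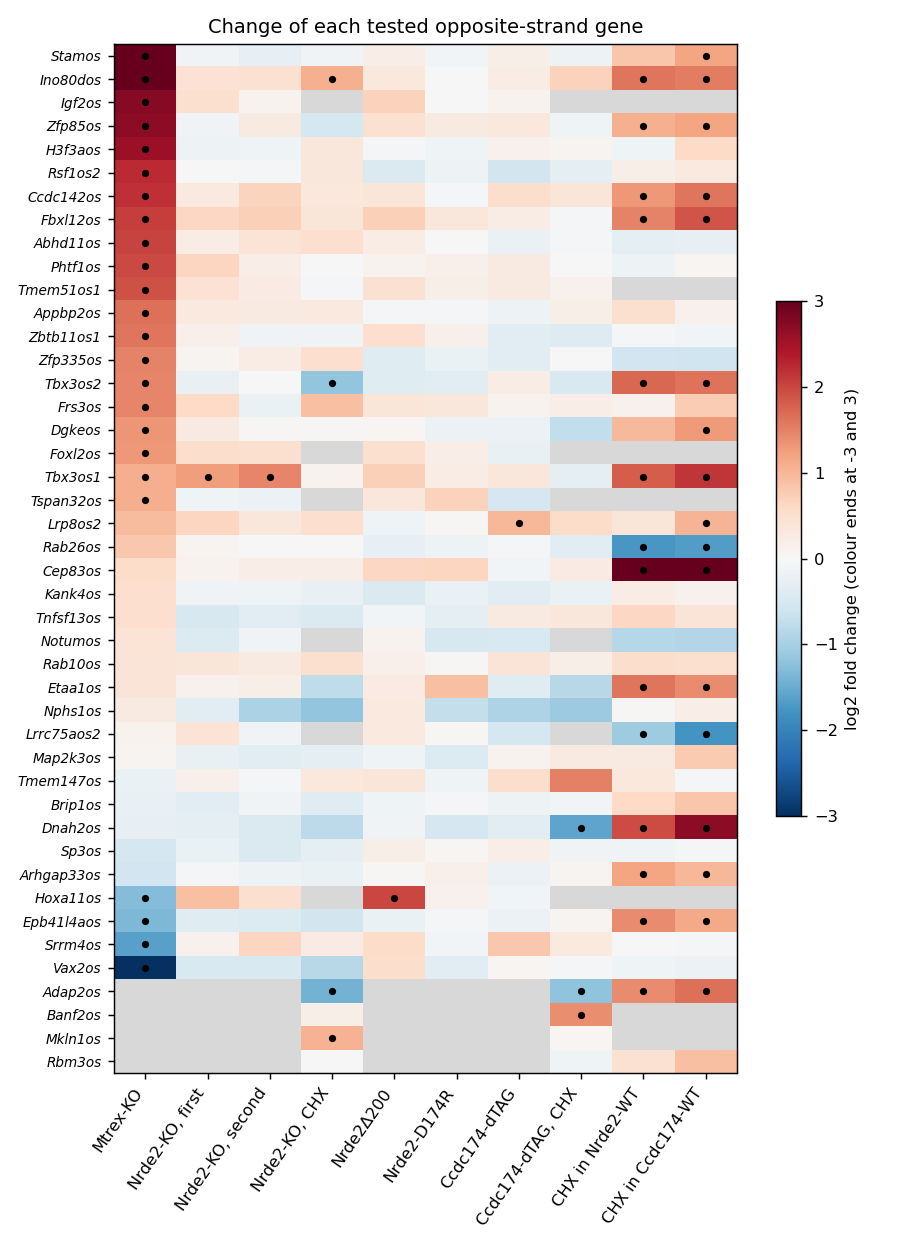
Log2 fold change of each of 44 opposite-strand genes tested in at least 1 of 10 comparisons (columns), with red for higher, blue for lower, grey for not tested and black dots for genes called; the Mtrex-KO column carries the most dots, followed by the CHX columns, and the Nrde2 and Ccdc174 columns carry 0 to 4 each.

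With CHX, too, part of the class was higher. In the WT of the *Nrde2* line 12 of 37 tested genes rose and 2 fell, with a median log2 fold change of 0.45, and in the WT of the *Ccdc174* line 15 rose and 2 fell, with a median of 0.76. Among all 15133 genes 11.1% were called higher and 2.97% lower in the first and 12.6% and 2.7% in the second, with medians of -0.0048 and -0.02. Of other antisense genes 21.6% and 31.4% rose. With the level filter on the libraries without CHX, 28 genes were tested, of which 5 rose and 2 fell in the *Nrde2* line and 7 rose and 2 fell in the *Ccdc174* line, 17.9% and 25.0% higher against 8.31% and 9.58% of all genes. Markers moved with CHX as well. Of the 8 mESC markers 2 fell in each line, *Tfcp2l1* by 1.34 and 1.42 and *Nanog* by 1.16 and 1.26 on the log2 scale, with sums of 3703 to 3710 CPM against 5582 to 5769 in the *Nrde2* line and 2861 to 2955 against 4510 to 4845 in the *Ccdc174* line. Primitive endoderm markers rose in 1 and 2 of 4 cases in the *Nrde2* and *Ccdc174* lines, with sums of 13.6 to 13.9 against 7.64 to 9.19 and of at most 9.40 against 4.37 to 4.46, and 1 of 4 trophectoderm markers fell in the *Nrde2* line, with sums of 43.5 to 48.1 against 76.7 to 88.3. In each line 1 of 4 neural markers rose and 1 fell and 1 of 3 fibroblast markers rose, 1 of 2 mesoderm markers fell in the *Nrde2* line, and 0 of the 2-cell-like markers were called, and the part of these states in the changes of the opposite-strand genes was not tested. The values below were scaled within the 16 libraries of this fit.

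*Cep83os*, divergent to a gene of centriole appendages, rose most among the 37 tested genes. In the *Nrde2* line it stood at 0.331 and 0.494 CPM without CHX and 7.74 and 6.76 with it, a log2 fold change of 3.51 ± 0.182 (SE, n = 2 against 2, limma adjusted p = 1.33e-09). In the *Ccdc174* line it stood at 0.336 and 0.226 without and 7.06 and 6.74 with CHX (3.76 ± 0.182), and *Cep83* changed by -0.19 and -0.21 in the 2 lines. The levels of *Cep83os* without CHX lay below the filter of 0.5 CPM, so its level with CHX helped it pass. Its rank and p-value are therefore a description. Other genes named below passed in the same way, since fewer rose (5 and 7) with the filter on the libraries without CHX. In *Mtrex*-KO *Cep83os* changed by 0.54 and was not called (limma adjusted p = 0.0566). *Dnah2os*, opposite to an axonemal dynein gene, had 1.2 and 1.3 without and 6.05 and 5.16 with CHX in the *Nrde2* line (1.96), and 1.32 and 0.989 without and 7.01 and 10.7 with CHX in the *Ccdc174* line (2.68).

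*Epb41l4aos*, which fell in *Mtrex*-KO, rose with CHX, from 16.4 and 19.0 CPM to 44.3 and 51.8 in the *Nrde2* line (log2 fold change 1.43) and from 17.5 and 15.2 to 42.7 and 30.7 in the *Ccdc174* line (1.14). Its 4 libraries with CHX thus lay above the 4 without. Among the other genes that rose in both lines were *Tbx3os1* (1.82 and 2.14), *Tbx3os2* (1.73 and 1.64), *Ino80dos* (1.61 and 1.53), *Etaa1os* (1.60 and 1.41), *Fbxl12os* (1.5 and 1.90), *Adap2os* (1.43 and 1.66), *Ccdc142os* (1.3 and 1.60), *Arhgap33os* (1.17 and 1.00) and *Zfp85os* (1.06 and 1.18). *Stamos*, *Dgkeos* and *Lrp8os2* were called in the *Ccdc174* line alone, at 1.19, 1.28 and 1.02. Calls that ended when 1 library was left out were those of *Epb41l4aos* in the *Ccdc174* line without CHX replicate 1 (0.90), of *Lrp8os2* there without untreated replicate 1 (0.96) or CHX replicate 2 (0.97), of *Arhgap33os* without CHX replicate 1 in the *Nrde2* line (1.07) and without untreated replicate 1 (0.81), CHX replicate 1 (1.03) or CHX replicate 2 (0.97) in the *Ccdc174* line, and of *Zfp85os* in both lines (without untreated replicate 1, 0.85 and 1.07; CHX replicate 1, 1.21 and 1.2; CHX replicate 2, 0.92 and 1.17). The CHX effect did not differ between the lines past the threshold for any of the 37 when the difference was fitted with limma (3 at an unadjusted p below 0.05, smallest adjusted p 0.585), and over all 15133 genes 0 passed it.

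The 2 genes that fell with CHX fell in both lines. *Rab26os* had 9.30 and 11.6 CPM without and 2.63 and 3.28 with CHX in the *Nrde2* line (log2 fold change -1.74) and 7.85 and 6.76 without and 2.09 and 2.13 with CHX in the *Ccdc174* line (-1.67), while *Rab26* changed by -0.51 and -0.72 and was not called. *Lrrc75aos2* fell by 1.07 and 1.79 on the log2 scale, and its stem gene *Lrrc75a* was called the other way, with changes of 2.00 and 2.05. In the *Nrde2* line *Lrrc75aos2* was not called without untreated replicate 1 (-0.85), CHX replicate 1 (-0.98) or CHX replicate 2 (-1.15). The stem genes that rose together with their opposite-strand gene in both lines were *Fbxl12* (1.63 and 1.71) and *Zfp85* (1.02 in each). Over 35 pairs the opposite-strand gene alone rose in 8 and 11.

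**Figure D4:**
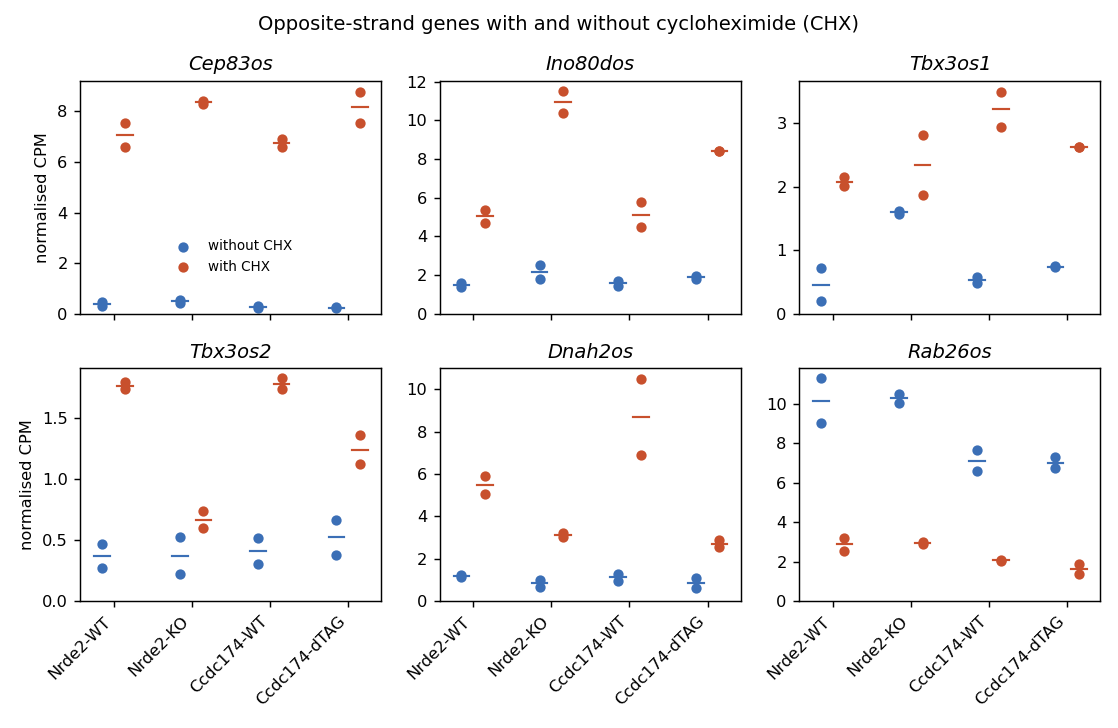
Normalised CPM without and with CHX of Cep83os, Ino80dos, Tbx3os1, Tbx3os2, Dnah2os and Rab26os, scaled here over all 28 libraries. Each panel has 1 point per library and a short line at each mean, for Nrde2-WT, Nrde2-KO, Ccdc174-WT and Ccdc174-dTAG. In the WT of both lines Rab26os is lower with CHX and the others are higher.

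Within the CHX libraries, those labelled *Nrde2*-KO differed from WT in 4 of 38 genes, against 2.75% of all genes higher and 1.9% lower. *Ino80dos* had 5.28 and 5.97 CPM in WT and 11.4 and 12.6 in *Nrde2*-KO, a log2 fold change of 1.06 ± 0.137 (limma adjusted p = 0.000158), and *Mkln1os* had 0.482 and 0.296 in WT and 0.865 and 1.28 in *Nrde2*-KO (1.05). Both stood near the thresholds, since *Ino80dos* was not called without WT replicate 1 (0.97) or *Nrde2*-KO replicate 2 (0.99), nor *Mkln1os* without WT replicate 2 (0.83) or *Nrde2*-KO replicate 2 (0.82). *Adap2os* had 1.53 in each WT library and 0.405 and 0.435 in *Nrde2*-KO (-1.41), and *Tbx3os2* had 2.01 and 1.94 in WT and 0.811 and 0.652 in *Nrde2*-KO (-1.18). Their stem genes were not called, with changes of 0.46 for *Ino80d*, -0.05 for *Mkln1*, -0.08 for *Adap2* and -0.07 for *Tbx3*. *Tbx3os1*, called in *Nrde2*-KO without CHX, stood at 2.25 and 2.39 in WT and 2.05 and 3.07 in *Nrde2*-KO with it, a change of 0.11. The *Nrde2*-KO effect with CHX minus that without was -1.38 for *Tbx3os1* (limma adjusted p = 0.0959), and 0 of 37 genes passed the threshold for such a difference, with 7 at an unadjusted p below 0.05, while 23 of all 15133 genes (0.152%) passed it. The 6 markers of the 2-cell-like state tested here all rose, with sums of 57.5 to 63.7 CPM in *Nrde2*-KO and 5.09 to 5.41 in WT, 2 of 5 primitive endoderm markers rose and 1 fell, 1 of 4 trophectoderm markers rose and 1 of 4 neural markers fell, and their part in these changes was not tested.

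After CCDC174 depletion with CHX, 3 of 38 genes were called, against 0.213% of all genes higher and 0.762% lower. *Dnah2os* had 7.65 and 11.8 CPM in WT and 3.21 and 2.84 after dTAG-13, a log2 fold change of -1.58 (limma adjusted p = 0.000371), and *Adap2os* had 2.01 and 2.4 in WT and 0.963 and 0.665 after it (-1.21). *Dnah2* and *Adap2* changed by -0.32 and -0.55 and were not called. *Banf2os* rose by 1.40, from 0.124 and 0.0999 to 0.741 and 0.665, below 1 CPM throughout. *Dnah2os* was called with each of the 4 libraries left out, *Adap2os* was not without WT replicate 1 (-1.33), WT replicate 2 (-1.10) or dTAG-13 replicate 2 (-1.01), and *Banf2os* was not without any 1 of them (1.34 to 1.45). For *Dnah2os* the effect with CHX minus that without was -1.23 (limma adjusted p = 0.149), and 0 of 37 genes passed the threshold for this difference, with 3 at an unadjusted p below 0.05, while 9 of all 15133 genes (0.0595%) passed it. Of the cell state markers 1 neural marker of 4 fell here and no other was called, and its part was not tested.

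Ribosome footprints were counted on 62 of the 88 genes, but only 6 had at least 50 in the 4 Ribo-seq libraries together. These were *Brip1os* (530 footprints), *Epb41l4aos* (261), *Srrm4os* (214), *Rab10os* (195), *Rab26os* (182) and *Lrp8os2* (118). For the 8 genes of highest mean RNA level, the ratio of Ribo-seq CPM to RNA-seq CPM was 0.606 for *Brip1os*, 0.861 for *Epb41l4aos*, 0.447 for *Srrm4os*, 0.638 for *Rab10os*, 0.851 for *Rab26os*, 0.297 for *Kank4os*, 0.158 for *Vax2os* and 0.366 for *Ino80dos*, and the median over 13287 coding genes was 0.472. It thus lay above that median for 4 of the 8 and below it for the other 4. Of the latter, *Kank4os*, *Vax2os* and *Ino80dos* had only 40, 26 and 19 footprints. Over the 6 genes with at least 50 footprints the median ratio was 0.745, and *Lrp8os2* had the highest of these at 2.39. The libraries of the 2 assays were prepared in different ways, and a footprint count alone does not show translation. Of 17 genes tested between *Nrde2*-KO and WT limma called 0, with 5 at an unadjusted p below 0.05, and edgeR and DESeq2 on the recovered reads called 0, while 3.62% of all 13857 genes were called higher and 2.8% lower. *Srrm4os* had 5.59 and 5.85 footprint CPM in WT and 8.78 and 10.1 in *Nrde2*-KO, a log2 fold change of 0.70 (limma adjusted p = 0.0083), below the size threshold.

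Where the CPM were used as deposited, without the median-of-ratios scaling, the median of all genes shifted by -0.36 on the log2 scale in *Mtrex*-KO, and of all calls 34.1% were higher in place of 57.7%. Of the opposite-strand genes 17 then rose and 4 fell, with a median of 0.69 against -0.38 for all genes. For the difference between the *Mtrex*-KO and *Nrde2*-KO effects the shift was -0.43, 28.9% of all calls were higher in place of 60.8%, and 7 of the opposite-strand genes were higher and 4 lower. With CHX the shift was 0.21 and 0.23 in the *Nrde2* and *Ccdc174* lines, 89.2% and 91.6% of calls were higher in place of 78.9% and 82.3%, and 13 rose and 1 fell and 18 rose and 2 fell. In the first *Nrde2*-KO experiment the share of higher calls was 68.4% in place of 57.4%, and in Ribo-seq 75.5% in place of 56.4%, with a shift of 0.14.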

How the data were processed

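RNA-seq (28 libraries) and Ribo-seq (4 libraries) were analysed from the tables deposited by the authors, which hold CPM per gene; the series' binding (BCLIP) libraries were not used here. Per the methods, the authors aligned 50-nt single-end reads to mm10 with STAR 2.7.3a and counted uniquely mapping reads by strand with featureCounts on GENCODE genes. Each deposited CPM was a whole multiple of 1 read (100% of values), so reads and depth were recovered. Symbols, gene types and positions came from GENCODE M21 (55154 of 55335 gene IDs matched, 181 did not), promoters from RefSeq.

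CPM were divided by median-of-ratios factors and tested as log2(CPM + 0.25) with limma 3.58.1 (trend, eBayes, R 4.3.3), on genes of mean CPM of at least 0.5 in the libraries of the fit (20 without CHX, 8 with CHX, 16 for the CHX response, 4 for Ribo-seq). Fold changes are on that scale, which understates changes of scarce genes. A gene was called at an adjusted p below 0.01 and a log2 change beyond 1. All 2-sided p-values were adjusted over all genes of a fit. Groups followed the labels. Alternatives were edgeR 4.0.16, DESeq2 1.42.0, TMM factors, other added values and filters, a replicate block, and leaving out each library. Filters on the libraries outside the changed group were chosen after seeing the data. The fit was tested on simulated data and the depth per library is given above.

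Named were, in each comparison, up to 15 called genes of largest change that moved the same way in both libraries, the 8 of highest mean CPM, genes with adjusted p below 0.01 in both *Nrde2*-KO experiments, their stem genes and the targeted genes; others are said to be chosen after their values were seen. The members and gene lists were chosen with earlier results of these data known. Motifs were searched as exact letters. The floor of 3 reads covers counting error only.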

Additional observations from a re-analysis of the deposited data

Results flagged for a closer look

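The effect of *Mtrex*-KO differed from that of the first *Nrde2*-KO experiment, by a fit of the difference itself with limma, for 16 opposite-strand genes. On the log2 scale the *Mtrex*-KO effect minus the *Nrde2*-KO effect was 3.60 for *Stamos*, 2.78 for *Zfp85os*, 2.7 for *H3f3aos* and 2.54 for *Ino80dos*. It was 2.26 for *Igf2os*, 2.24 for *Rsf1os2*, 1.88 for *Ccdc142os* and 1.79 for *Abhd11os*. Smaller differences were those of *Tmem51os1* (1.48), *Zbtb11os1* (1.46), *Zfp335os* (1.42), *Appbp2os* (1.36) and *Phtf1os* (1.35). The difference was negative for *Vax2os* (-2.85), *Hoxa11os* (-2.20) and *Srrm4os* (-1.76). Some calls ended when 1 library was left out, those of *Abhd11os* without WT replicate 1 of the *Nrde2* line (1.5), of *Zfp335os* (1.09 to 1.32) and *Phtf1os* (1.09 to 1.27) without any of 3 libraries, of *Tmem51os1* without any of 6 (0.99 to 1.61), of *Appbp2os* without any of 4 (1.09 to 1.43) and of *Igf2os* without *Nrde2*-KO replicate 2 (2.02) or WT replicate 1 of the *Mtrex* line (1.92). Without *Mtrex*-KO replicate 2, *Ccdc142os*, *Zfp85os*, *Appbp2os* and *Igf2os* fell under the level filter, as *Igf2os* did without replicate 1. The level of *Stamos*, *Zfp85os*, *Igf2os* and *Rsf1os2* in *Mtrex*-KO helped them pass this filter, as said above. The 2 effects came from different lines and from 3 and 4 days of 4OHT, and line, time and gene cannot be told apart in them. As the paper reports, *Mtrex* knockout also lowers NRDE2 protein.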

How the results depend on the processing

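The count of called opposite-strand genes in *Mtrex*-KO (24) was 48 with a filter at 0.1 CPM or with none and 12 at 1 CPM, and lay between 17 and 23 with 1 library left out. At 0.1 CPM 86 were tested, of which 44 rose (51.2%) and 4 fell (4.65%), against 18.1% and 8.98% of all 19826 genes. Without those that reached 0.1 CPM only through 1 group, 36 of 76 rose. The counts that follow are of called genes alone and are not set against all genes here. Adding 1 before log2 gave 0 in place of 1 in both *Nrde2*-KO experiments and in *Ccdc174-dTAG*, 0 in place of 4 in *Nrde2*-KO with CHX, and 8 and 10 in place of 14 and 17 for CHX in the *Nrde2* and *Ccdc174* lines. A filter at 1 CPM gave 9 and 11 for CHX and 9 in place of 16 for the difference between the *Mtrex*-KO and *Nrde2*-KO effects. At 0.1 CPM the difference gave 40 and the first *Nrde2*-KO experiment 2. With no filter the difference gave 32, and the first *Nrde2*-KO experiment, *Ccdc174-dTAG* and *Ccdc174-dTAG* with CHX gave 0. With the compared libraries alone, *Nrde2*Δ*200* gave 2 in place of 1 and *Ccdc174-dTAG* 0. With the filter on libraries outside the changed group, chosen after seeing the data, CHX gave 7 and 9 and the difference 10. A level rule of 0.5 CPM left 41 of the 88 genes.

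With 1 library left out, the counts were 0 to 1 for *Nrde2*-KO in the first experiment, 0 to 2 in the second, 3 to 5 with CHX, 1 for *Nrde2*Δ*200*, 0 for *Nrde2-D174R*, 0 for *Ccdc174-dTAG* and 1 to 2 for it with CHX. They were 12 to 16 and 14 to 18 for CHX, 12 to 18 for the difference and 0 for Ribo-seq. Where these counts moved, the causes were not tested. With the replicate block the counts were 24 in *Mtrex*-KO, 5 in place of 4 in *Nrde2*-KO with CHX, and the same as without it elsewhere. Libraries of 1 number deviated from their group means together at correlations of -0.03 to 0.42, the highest in the *Mtrex* line. Such values do not exclude a shared replicate effect. The labels do not say that a number marks a pair, and the numbers were not taken as pairs. In *Mtrex*-KO edgeR called 25, DESeq2 33, TMM scaling gave 24 and CPM as deposited 21.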
